A study of Mus musculus with 4 samples.

Results

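Progenitor.2 is a class of epithelial cells in organoids of the mouse colon, cultures raised in Matrigel from fragments of its distal end. Its members are all cells to which the deposited cell table gives the annotation Progenitor.2, and they numbered 1284 of 6155 cells in all and of 4172 epithelial cells. The donors were 16-week-old mice, either wildtype (WT, C57BL/6) or Tnfr2-/-, whose TNF receptor 2 gene Tnfrsf1b is disrupted in the whole body and not in the epithelium alone. After passage 5, 1 culture of each genotype was kept with 20 ng/ml of tumor necrosis factor (TNF) between days 1 and 6, and the other with vehicle. All were dissociated on day 7, depleted of Annexin V-binding cells and made into 10x 3' libraries. The 4 groups are WT untreated, WT TNF, Tnfr2-/- untreated and Tnfr2-/- TNF, and runs of 4 values below follow that order. Each group was 1 library from 1 culture, so no test between groups was made, and every difference described here is between single cultures that also held fibroblasts.

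The colonic crypt is renewed from Lgr5-expressing stem cells at its base, whose daughters divide and then mature into absorptive colonocytes or secretory cells. After injury, epithelium at the wound edge stops dividing, flattens and crawls over the bared matrix on laminin and integrins. Repairing epithelium is known to switch on genes of the fetal gut, among them Ly6a (Sca-1), Anxa1 and Clu, and targets of the YAP and TEAD transcription factors. The same cells are known to lose stem cell genes for a time. The comparisons below ask which of these programs, progenitor, absorptive or wound-like, the Progenitor.2 cells carried, and how they differed between the libraries.

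The class held 62, 273, 233 and 716 cells, which was 5.5%, 23.5%, 22.8% and 83.4% of the epithelial cells of each library. Their UMIs (unique molecular identifiers, each counting 1 captured RNA molecule) summed to 1679134, 12685104, 9910422 and 33744349. The WT untreated cells stood apart: their median depth was 15574 UMIs against 33685 to 39167 in the others, and mitochondrial genes took a median 9.7% of their UMIs against 4.21% to 6.14%. Progenitor.1 cells of the same WT untreated library were at 2.92%. Xist was the sole sex-linked signal in 93.5% and 81.3% of the WT Progenitor.2 cells and in 1.29% and 0.419% of the Tnfr2-/- cells, of which 98.7% and 98.9% showed neither Xist nor a Y-linked gene. The WT TNF cells also held 13.6% with Y-linked UMIs alone, so the donors' sex and their genotype cannot be told apart. There were 3 barcodes that occurred in more than 1 library.

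Levels are given as CPM, a gene's UMIs per 1000000 UMIs of the class in that library. Brackets hold exact Poisson 95% intervals, and shares of cells carry exact binomial ones. Both cover counting error only. Differences are log2 of (CPM + 1), a scale that understates changes of low genes. A gene counted as higher or lower where it was at least 2-fold apart the same way in every library or pair compared, among genes at 20 CPM or more on either side.

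The promoters of 5 genes that mark the class are printed because the later results turn on these genes. Sequences run 5′ to 3′ from 250 bases before to 50 bases after the RefSeq start (GRCm38.p6). Capitals mark 3 motifs searched on both strands: AP-1 (spelled TGANTCA), TEAD (spelled GGAATG, which reads CATTCC on the other strand) and the TATA box (spelled TATAAA). The windows are chr13:60936576-60936875 (minus strand) for Ctla2a, chr13:12800030-12800329 (minus) for Prl2c3, chr15:25413715-25414014 (minus) for Basp1, chr19:20390622-20390921 (minus) for Anxa1 and chr5:135887669-135887968 (plus) for Hspb1.
Ctla2a: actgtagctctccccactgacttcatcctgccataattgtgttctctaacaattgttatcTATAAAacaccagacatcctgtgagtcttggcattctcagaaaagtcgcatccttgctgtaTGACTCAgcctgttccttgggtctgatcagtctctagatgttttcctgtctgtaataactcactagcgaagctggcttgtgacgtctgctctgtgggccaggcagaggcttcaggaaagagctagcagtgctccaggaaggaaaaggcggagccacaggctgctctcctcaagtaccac
Prl2c3: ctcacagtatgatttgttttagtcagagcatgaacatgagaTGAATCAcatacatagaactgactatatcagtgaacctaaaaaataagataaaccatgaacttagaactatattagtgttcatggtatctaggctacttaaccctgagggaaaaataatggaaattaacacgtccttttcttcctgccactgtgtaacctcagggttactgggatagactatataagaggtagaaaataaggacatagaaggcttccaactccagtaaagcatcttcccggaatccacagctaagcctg
Basp1: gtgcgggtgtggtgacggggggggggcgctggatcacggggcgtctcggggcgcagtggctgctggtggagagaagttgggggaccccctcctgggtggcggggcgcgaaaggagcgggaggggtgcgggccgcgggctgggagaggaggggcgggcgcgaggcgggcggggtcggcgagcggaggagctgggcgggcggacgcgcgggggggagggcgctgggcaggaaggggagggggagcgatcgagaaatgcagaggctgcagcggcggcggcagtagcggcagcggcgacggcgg
Anxa1: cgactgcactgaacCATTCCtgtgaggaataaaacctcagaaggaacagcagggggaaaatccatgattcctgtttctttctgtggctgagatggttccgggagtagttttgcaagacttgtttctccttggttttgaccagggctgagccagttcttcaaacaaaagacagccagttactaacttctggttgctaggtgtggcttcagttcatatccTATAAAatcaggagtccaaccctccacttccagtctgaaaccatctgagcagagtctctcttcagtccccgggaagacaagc
Hspb1: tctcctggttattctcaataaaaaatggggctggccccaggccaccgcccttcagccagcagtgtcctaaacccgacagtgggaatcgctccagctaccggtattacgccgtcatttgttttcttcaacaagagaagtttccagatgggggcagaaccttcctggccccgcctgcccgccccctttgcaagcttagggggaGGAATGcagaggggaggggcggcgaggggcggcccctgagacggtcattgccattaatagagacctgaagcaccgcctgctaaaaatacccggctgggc
Ctla2a carried an AP-1 and a TATA match, Prl2c3 an AP-1 match, Anxa1 a TEAD and a TATA match, Hspb1 a TEAD match, and Basp1 none of the 3. Among the 28 marker and leading genes looked up, 17 had a promoter in the RefSeq table, with 21 windows in all. AP-1 letters stood in 6 of the 21, TEAD letters in 2 and TATA letters in 9. Of 32851 promoters of this length, 7.81%, 14.7% and 13.6% held them. The 2 Ctla2a windows overlap, so its AP-1 and TATA matches are each counted in both. A match is a description of letters, not a binding site.

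The genes furthest above the other classes in Progenitor.2 cells included Aldh1a3, Hspb1, Ctla2a, Anxa1, Lama3 and Clu. Against whichever other epithelial class was highest in a library, 24 of 6678 genes were at least 2-fold higher in all 4 libraries (0.359%). The classes were made by clustering on these same genes, so this count and all levels against other classes describe the class and test nothing. Aldh1a3 (chromosome 7, 66390890 to 66427517), which makes retinoic acid from retinaldehyde, led the list. Its level was 649.1, 335.4, 125.5 and 255.5 CPM in Progenitor.2, and it was above the next class by 7.14, 3.67, 3.93 and 4.62 on the log2 scale. In Progenitor.1, the cycling progenitor class, Aldh1a3 was at 2.17, 18.1, 3.19 and 2.93 CPM. Every library thus held Aldh1a3 far above the other classes, with the smallest gap in WT TNF, where the next class was Secretory-Reg4-Ang4. That class occurred in WT TNF alone, with 246 cells at a median depth of 1958 UMIs.

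Hspb1, a small heat shock protein that protects the cytoskeleton, followed with 1160, 198.4, 399.5 and 156.4 CPM and a smallest log2 gap of 2.24. Hspb1 in Progenitor.1 was at 44.8, 12.4, 18.1 and 9.17 CPM. The bicarbonate transporter gene Slc4a4 (smallest gap 1.86), Pxdc1 (1.69), Ctla2a (1.69) and Tnfrsf23 (1.59), a decoy receptor for the death ligand TRAIL, came next. Tnfrsf23 was among the steadiest, at 136.4, 137.9, 165 and 156.7 CPM. Ctgf, a matrix-associated YAP target, was at 159.6, 89.3, 164.8 and 179.5 CPM. Anxa1, a phospholipid-binding protein that dampens inflammation and aids epithelial repair, was at 4683, 1862, 4833 and 3386 CPM against 572.4, 400, 800.8 and 584.6 CPM in Progenitor.1 and 615.9, 676.1 and 730.3 CPM in the absorptive class of the first 3 libraries. Lama3, a chain of laminin-332, the laminin laid down by migrating keratinocytes, was at 145.9, 208.4, 174.7 and 228.2 CPM against 10.9 to 23.2 CPM in Progenitor.1. Clu, a secreted chaperone known as a mark of revival stem cells, was at 1697, 1102, 2884 and 1819 CPM against 498.7, 114.9, 311.7 and 97.3 CPM.

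The 12 genes with the largest smallest gap ended with Cdkn2a and Prl2c2 (both 1.41). Cdkn2a, which encodes inhibitors of the cell cycle, was at 117.3, 108.9, 200.5 and 122.2 CPM. Prl2c2, a proliferin of the prolactin family known from placenta, was at 466.3, 22.5, 700.1 and 149.4 CPM, lowest in WT TNF. The rest of the 24 included Ecm1, Hmox1, Tnfrsf11b, Tmem43, Il1a, Itgb6, Irx3, Sprr1a, Fn1, Antxr2 and Slc25a48, with smallest gaps from 1.41 down to 1.04. Itgb6 is an integrin subunit raised at wound edges, Il1a is an alarmin cytokine and Tnfrsf11b is osteoprotegerin. In Tnfr2-/- TNF only Progenitor.1, Progenitor.3 and enteroendocrine cells reached the 10 cells needed for comparison, so fewer classes were faced there. With WT TNF left out the count was 90, and with classes of at least 20 cells it was 73. It was 13 with a minimum of 50 CPM and 15 with a pseudocount of 10 CPM. Without epithelial cells holding 5 or more mesenchymal marker UMIs it was 14.

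**Figure D1:**
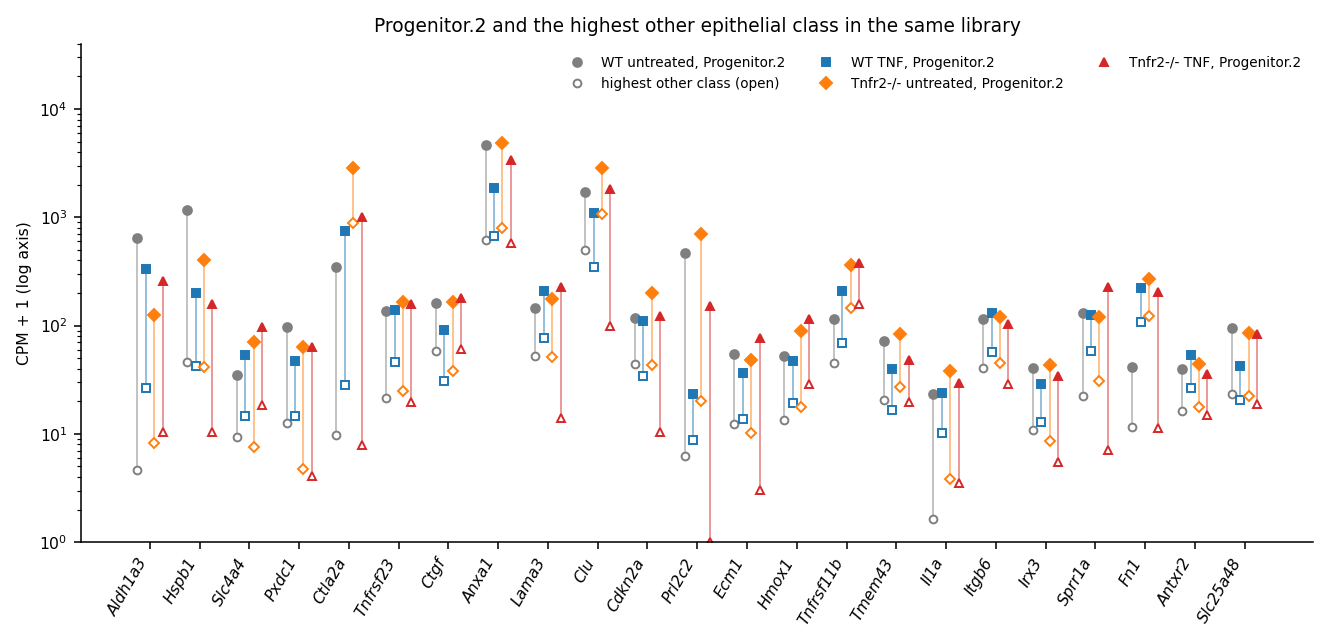
Level of the genes that led Progenitor.2, as CPM + 1 on a log axis, in each of the 4 libraries. Filled markers are Progenitor.2 and open markers the highest other epithelial class of that library. Aldh1a3 keeps the widest gap (at least 3.67 on the log2 scale), and Prl2c2 has an open marker at 0 CPM in Tnfr2-/- TNF.

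The genes that mark the class were not spread in the same way over the libraries. Ctla2a, an inhibitor of cysteine proteases (chromosome 13, 60934155 to 60936625), was at 349 (321.3 to 378.4), 750.4 (735.4 to 765.6), 2882 (2849 to 2916) and 1013 CPM (1002 to 1023) in Progenitor.2. Ctla2a in Progenitor.1 was at 8.87, 7.39, 60.5 and 6.83 CPM. It was not confined to the class, since enteroendocrine cells of Tnfr2-/- untreated held 894 CPM. Crct1, a gene of the epidermal differentiation complex (chromosome 3, 93014205 to 93015687), was at 125.1, 18, 412.5 and 338 CPM. Mesenchymal cells held Crct1 at 3.85, 35.4, 1.38 and 452.9 CPM, above Progenitor.2 in both TNF libraries. Prl2c3, a near-identical relative of Prl2c2 (chromosome 13, 12790816 to 12800079), was at 734.3, 18.1, 755.9 and 176.6 CPM. Reads of Prl2c2 and Prl2c3 may be split between the copies, so each level is uncertain. Crct1 and Prl2c3 were both lowest in WT TNF.

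Basp1 and Ly6a varied less. Basp1, a membrane-bound growth-associated protein (chromosome 15, 25363277 to 25413764), was at 232.3, 247.2, 346.7 and 399.9 CPM against 13.5 to 18.5 CPM in Progenitor.1. Ly6a (chromosome 15, 74994877 to 74998031), the surface protein Sca-1 of regenerating epithelium, was at 4621, 3336, 4005 and 2635 CPM against 1219, 815.6, 967.6 and 593 CPM. The log2 gap of Ly6a to Progenitor.1 was 1.92, 2.03, 2.05 and 2.15. Ly6a did not separate Progenitor.2 from absorptive cells, which were at 2359, 3867 and 1581 CPM, higher than Progenitor.2 in WT TNF.

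After thinning every cell to 5000 UMIs, which left out 23 Progenitor.2 cells, Ly6a was found in 96.4%, 98.5%, 95.1% and 93.7% of them, in 61.7% to 79.1% of Progenitor.1 cells and in 19.2% to 31.3% of mesenchymal cells (96.8%, 100%, 97.9% and 98% of Progenitor.2 cells unthinned). Ly6a was therefore near universal in the class. Ctla2a was found in 7.14%, 8.15%, 26.2% and 21.5% (14.5%, 15.8%, 39.1% and 35.9% unthinned), against 0.776%, 4.36%, 2.33% and 5% of mesenchymal cells, which should lack it. Unthinned, 2.17%, 22.2%, 6.67% and 15.6% of mesenchymal cells held Ctla2a. In WT TNF the thinned intervals overlapped (5.18% to 12.1% against 2.34% to 7.34%), so that share was not clearly above background. Aldh1a3 was found in 28.6%, 32.2%, 18.7% and 28.5% (32.3%, 55.7%, 36.9% and 43.9% unthinned) against at most 4.17% of mesenchymal cells. Basp1 was found in 19.6%, 25.9%, 46.2% and 47% (24.2%, 37.4%, 57.1% and 65.6% unthinned), though mesenchymal cells, at 38.4% to 58.6%, express it too and give no background. Crct1 was found in 8.93%, 2.22%, 21.3% and 19.7% (16.1%, 7.33%, 36.5% and 34.6% unthinned). Mesenchymal cells held Crct1 in 0.212%, 5.7%, 0% and 10.8%. In WT TNF the Progenitor.2 share lay below theirs and is not counted as above background. Thinned Progenitor.1 cells of that library held Crct1 in 0%. The 228 Crct1 UMIs of its Progenitor.2 cells lay in 20 cells, 88 of them in 1 cell. In Tnfr2-/- TNF the intervals of the Crct1 shares overlapped, at 16.9% to 22.8% against 5.9% to 17.8% in mesenchymal cells. The part of free RNA in WT TNF and in Tnfr2-/- TNF was not tested. Prl2c3 was found in 19.6%, 3.33%, 25.3% and 11.8% (29%, 7.69%, 34.8% and 22.6% unthinned) against 10% of mesenchymal cells in Tnfr2-/- TNF and at most 0.671% in the others. The Prl2c3 intervals overlapped in Tnfr2-/- TNF (9.55% to 14.4% against 5.27% to 16.8%) and in WT TNF (1.54% to 6.23% against 0.0814% to 2.4%). Unthinned, 26.2% of mesenchymal cells of Tnfr2-/- TNF held it. Neither TNF share was clearly above background.

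Against Progenitor.1, Progenitor.2 cells lacked the genes of division and held more of wound, laminin and absorptive genes. Of 5598 genes, 365 were higher in all 4 libraries (6.52%) and 468 were lower (8.36%). With TMM or median-of-ratios scaling the split turned to 508 higher and 335 lower or 499 and 326, so the balance of the counts depends on the scaling. The lower genes numbered 227 with a minimum of 50 CPM and 927 with none. The median of all genes lay at -0.08, -0.10, -0.07 and -0.15.

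Among the genes lower in Progenitor.2, Hist1h1b, a linker histone made in S phase, was at 0, 4.65, 4.34 and 2.19 CPM against 270.9, 259.6, 284.1 and 200.5 CPM. Pclaf, a partner of the replication clamp, was at 0, 1.34, 1.51 and 1.81 CPM against 109 to 122.2 CPM. Mki67, the usual mark of dividing cells, was at 1.79, 9.78, 4.14 and 7.82 CPM against 173.9, 225.1, 200 and 224.6 CPM, and Top2a, which untangles DNA in division, was at 1.79, 8.59, 5.25 and 6.19 CPM against 147.4 to 290.9 CPM. Thinned cells with a Mki67 UMI made up 0%, 3.7%, 1.33% and 1.55% of Progenitor.2 and 29.9% to 41.5% of Progenitor.1, against 0% to 11.1% of enteroendocrine cells, which do not divide. The remaining genes at the lower end were mitotic, namely Ccna2, Cdc20, Cenpf, Plk1, Nusap1, Spc24 and Hmmr, each lower by at least 4.33 on the log2 scale in every library.

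The cell-cycle lists moved as wholes. Of 44 tested genes of the G2 and mitosis list, 38 were lower and 0 higher, with medians of -3.73, -3.66, -3.66 and -3.75 (-3.66 in WT untreated with its 9 genes at 0 UMIs set to the floor of 3 counts). Of 30 tested S phase genes, 26 were lower and 0 higher, with medians from -2.45 to -2.96. The study's reference list for progenitor 1 gave 44 lower and 0 higher of 48. By these levels the class was largely non-cycling in every library, though the classes were clustered on these same genes. Nucleolar genes that build ribosomes were lower too, in 28 of 37 with 0 higher. Npm1, which assembles and exports ribosome precursors, was at 727.8, 892.3, 1156 and 1083 CPM against 3126, 2583, 2966 and 2553 CPM, and Ncl, nucleolin, at 294.8, 244.1, 332.1 and 330 CPM against 1003, 927.8, 1143 and 948.9 CPM.

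Genes of the crypt base were low in the class. Of 18 tested genes of the crypt stem and Wnt list, 5 were lower than in Progenitor.1 (Cdca7, Hopx, Lrig1, Lgr5 and Smoc2) and 0 higher. Lgr5, the receptor for R-spondins on crypt base stem cells, was at 0, 5.83, 22.4 and 39.5 CPM against 42.7, 65.9, 68 and 120.5 CPM. Smoc2, another stem cell gene, was at 0, 1.73, 13 and 14.4 CPM against 86.7, 114, 96.8 and 151.9 CPM. Both genes were higher in the Tnfr2-/- cells than in the WT cells of this class. Sox9, a transcription factor of crypt progenitors, was at 78, 116.8, 158.2 and 187.9 CPM against 106.6, 144, 147.9 and 156 CPM and so was not 2-fold apart. Cd44, a hyaluronan receptor of crypt and wound cells, was at 144.1, 133.9, 155.8 and 154.6 CPM, above the 8.1 to 24.1 CPM of absorptive cells. The study's own reference list for progenitor 2 gave 0 higher and 9 lower of 40 tested genes (Hook1, Mecr, Mlec, Kcne3, Chpt1, Csrp2, Ppp1r1b, Gmds and Ttr) and took 1.03%, 2.08%, 1.39% and 1.44% of UMIs against 1.25%, 1.89%, 1.31% and 1.37% in Progenitor.1. This list's share was thus lower than in Progenitor.1 in WT untreated and slightly higher in the other libraries. The progenitor 3 list gave 6 higher and 2 lower of 33.

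The genes highest above Progenitor.1 were Saa1, an acute-phase protein also made by absorptive cells (smallest log2 difference 5.36), Ctla2a (5.15), Dynap (4.59), 2010109I03Rik (4.45), Serpinb9b (4.33), Aldh1a3 (4.14), Prl2c2 (3.98), Dhrs9 (3.96), Hspb1 (3.90) and Basp1 (3.90). Saa1 was at 671.2, 533.2, 366.4 and 383.3 CPM against 0.767 to 8.39 CPM, though absorptive cells held 1082 to 3275 CPM. Dynap was at 259.1, 52, 216.4 and 190.6 CPM and Serpinb9b, a serine protease inhibitor, at 129.2, 23.6, 146.8 and 35.8 CPM. Both were lowest in WT TNF. Dhrs9, a retinol dehydrogenase, was at 147.1, 34.1, 36 and 39.1 CPM.

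Of 14 tested genes of the laminin-332 and hemidesmosome list, 8 were higher than in Progenitor.1 (among them Lama3, Lamb3, Itgb6, Itgb1 and Plec) and 0 lower, with medians of 1.86, 1.6, 1.51 and 1.5. Lamb3 was at 279.9, 283.6, 268.2 and 296.8 CPM and Itgb1, the common integrin beta chain, at 476.4, 451.1, 500.4 and 483.4 CPM. Both genes were nearly level across the 4 libraries. The whole list took 0.322%, 0.295%, 0.281% and 0.273% of UMIs, against 0.0852% to 0.113% in Progenitor.1 and 0.144% to 0.186% in absorptive cells. Against absorptive cells 4 of 14 stayed higher, Lama3 and Itgb6 among them.

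The fetal intestine list of 317 genes, 292 of them in the matrix, gave 54 higher and 3 lower of 135 tested, with medians of 1.37, 0.93, 1.04 and 1.02. It took 9.02%, 5.9%, 6.85% and 5.29% of UMIs in Progenitor.2 against 2.66% to 3.19% in Progenitor.1. S100a6, a calcium-binding protein of the list, was alone at 33000, 17793, 15854 and 11190 CPM. Absorptive cells also held more of this list than Progenitor.1, at 4.45%, 5.58% and 4.22%. The list is a reference list used by the study.

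Of 23 tested YAP and TEAD targets, 9 were higher (F3, Tinagl1, Anxa3, Ctgf, Gadd45b, Clu, Nt5e, Msln and Anxa1) and 2 lower, Cdc20 and Birc5, which are also genes of mitosis. F3, tissue factor, was at 561, 679.9, 465.9 and 771.2 CPM against 99.2 to 161.6 CPM. Genes of stratified and wound keratinocytes gave 10 higher and 0 lower of 17. Among them Il1rn, which blocks the interleukin 1 receptor, was at 323.4, 345, 301.9 and 303 CPM against 39.9 to 68.7 CPM, and Sprr1a, a cornified envelope protein, at 129.2, 123.7, 119.9 and 225.6 CPM against 1.5 to 7.83 CPM. Sprr2a1, Sprr2a2 and Sprr2a3 were also counted, but these copies are near identical and their shares are uncertain.

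Signals of growth and arrest stood side by side. Egfr, the EGF receptor, was at 50.6, 52.7, 46.3 and 52.9 CPM against 8 to 16.1 CPM in Progenitor.1, and Tgfa, 1 of its ligands, at 38.7, 26.9, 36.6 and 31.9 CPM. These 2 were higher among 11 tested genes of the EGF receptor list, and Lrig1, which restrains the receptor, was lower. Of 22 tested p53 and senescence genes 5 were higher (Cdkn2a, Cdkn2b, Plk3, Cdkn1a and Pmaip1). Cdkn1a, the inhibitor p21, was at 559.2, 745.3, 538.4 and 510.1 CPM against 177.9 to 220.5 CPM, and Cdkn2b, the inhibitor p15, at 145.3, 137.2, 158 and 115.9 CPM against 26.7 to 48.8 CPM. All 3 cyclin-kinase inhibitor genes were therefore above Progenitor.1 in every library. AP-1 and early response genes gave 4 higher of 20 (Fosl2, Maff, Dusp1 and Hspa1b) and 0 lower. Dusp1 and Hspa1b are also known to respond to dissociation, whose part was not tested.

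TNF and NF-kB targets gave 8 higher and 0 lower of 25 (Cflar, Ptgs2, Il1a, Plaur, Saa1, Tnfaip3, Gadd45b and Cxcl16). Ptgs2, the inducible prostaglandin synthase, was at 64.9, 45.1, 118.7 and 49.6 CPM against 2.32 to 4.52 CPM. These genes stood above Progenitor.1 in the untreated libraries too. Interferon targets gave 1 higher (Isg20) and 2 lower (Ifitm2 and Ifitm3) of 21. Hypoxia and glycolysis genes gave 8 higher and 0 lower of 31 (Slc2a1, P4ha1, Hk1, Ero1l, Anxa2, Slc16a3, Tnfrsf11b and Ndrg1), but their median was 0.1 in WT untreated and 1.17 to 1.28 in the other libraries. Retinoid genes gave 4 higher of 6 (Rdh10, Dhrs9, Aldh1a3 and Rbp2). Rdh10, which oxidises retinol to retinaldehyde, the step before Aldh1a3, was at 278.7, 244.1, 277.9 and 239.9 CPM against 67.4 to 101.1 CPM. Of 4 tested placental-type genes, Prl2c2 and Ctla2a were higher. Tight junction and barrier genes gave 9 higher of 24, among them Cldn4 at 692, 1012, 906.6 and 1007 CPM, and 1 lower, Cldn2, a pore-forming claudin of the crypt base, at 1.19, 3.31, 8.98 and 7.53 CPM against 29.2 to 47.9 CPM.

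**Figure D2:**
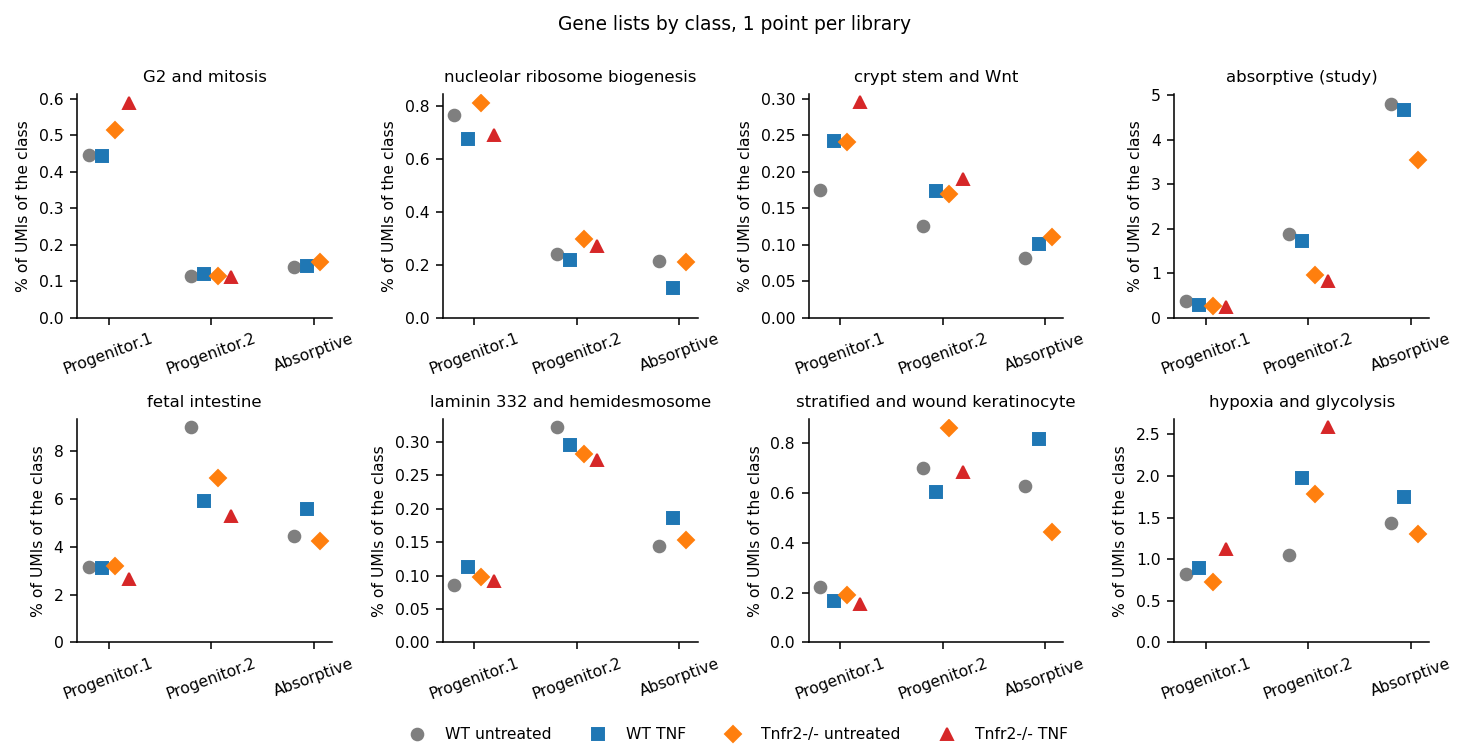
Share of UMIs taken by gene lists in Progenitor.2, Progenitor.1 and absorptive cells, in percent, with 1 point per library and Tnfr2-/- TNF missing from the absorptive class, where it had 1 cell. The laminin-332 list is highest in Progenitor.2 (0.273% to 0.322%), the G2 and mitosis list is highest in Progenitor.1, and the absorptive list lies between the other classes.

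Absorptive genes were intermediate in Progenitor.2. Of 35 tested genes of the study's absorptive list, 25 were above Progenitor.1 and 0 below, with medians of 2.77, 2.9, 2.39 and 2.3. The list took 1.87%, 1.72%, 0.949% and 0.825% of UMIs, against 0.233% to 0.376% in Progenitor.1 and 4.8%, 4.67% and 3.54% in absorptive cells. Car1, a carbonic anhydrase of colonocytes, was at 2815, 1365, 676.1 and 508.3 CPM, against 395.3, 21, 115 and 48.8 CPM in Progenitor.1 and 10637, 9462 and 11084 CPM in absorptive cells. Krt20, a keratin of the crypt surface, was at 298.4, 335.5, 50.6 and 53.5 CPM against 443, 409.8 and 265 CPM in absorptive cells. The WT cells thus came near the absorptive level of Krt20, and the Tnfr2-/- cells did not.

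Against absorptive cells, compared in 3 libraries because Tnfr2-/- TNF held 1 such cell, 126 of 5108 genes were higher (2.47%) and 76 lower (1.49%). The absorptive classes of WT TNF and Tnfr2-/- untreated had 19 and 11 cells. With WT TNF left out the counts were 310 and 207, and with WT untreated left out 200 and 116. With a minimum of 50 CPM 57 were higher, and with no minimum 419. Ctla2a led the higher genes, followed by Hspb1, Krt14, Krt6a, Prl2c2, Fn1, Clu and Aldh1a3. Some of these were at or near 0 UMIs in absorptive cells, so the size of their difference depends on the added 1 CPM. Krt14, a basal keratinocyte keratin, was at 275.7, 105.5, 235.4 and 58 CPM against 4.11, 0 and 0 CPM in absorptive cells. It was also present in Progenitor.1, at 168.6, 27.1, 41.4 and 2.15 CPM. Krt6a, a keratin induced in wounded skin, was at 53, 54.1, 290.1 and 97.6 CPM, and in WT untreated Progenitor.1 held more, 79.7 CPM.

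The genes lower than in absorptive cells were led by S100g, a vitamin D-induced calcium carrier, at 2.38, 1.34, 6.56 and 17 CPM against 121.2, 137.8 and 120.5 CPM. Tnni1, 0610005C13Rik, Abat, Prdx6, Hsd11b2, Spink1 and Rbp2 followed, with differences in the library nearest to 0 of -2.64 to -1.98. Prdx6, a peroxiredoxin, was at 275.1, 380.5, 203.6 and 198.3 CPM against 2228, 2035 and 1790 CPM, and Rbp2, a carrier of retinol in absorptive cells, at 81, 83.1, 64.7 and 32.1 CPM against 422.4, 331.1 and 263.2 CPM. Both lay well under the mature level in every library. Of 28 tested genes of colonocyte transport and maturation, 7 were lower (among them Car1, Car2, Aqp8, Hpgd and Lypd8) and 0 higher. Of 44 tested genes of the absorptive list, 10 were lower and 0 higher. Of 11 tested G2 and mitosis genes, 0 were 2-fold apart, and the list took 0.114%, 0.119%, 0.114% and 0.11% of UMIs against 0.139%, 0.14% and 0.151% in absorptive cells.

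The leading genes differed in how they were spread over the cells of the class. Of the 24, 6 had a UMI in at least 50% of cells in every library. Without thinning, Anxa1 was found in 93.5% to 99.7% of cells, Lama3 in 83.2% to 92.3% and Itgb6 in 62.9% to 92.7%. The top 5% of cells held 33% to 50.6% of Anxa1 UMIs, 22.6% to 25.7% of Lama3 UMIs and 19.6% to 38.9% of Itgb6 UMIs. After thinning to 5000 UMIs, Anxa1 was found in 89.3% to 96% of cells, Lama3 in 50% to 55.6% and Itgb6 in 26.8% to 47.4%, with no background share taken for these genes. For 9 of the 24 the top 5% of cells held under 50% of the UMIs in every library, and others fell on both sides of 50%. For 8 of the 24 the top 5% of cells held at least 50% of the UMIs in every library. These were Ctla2a (82.8% to 98.6%), Fn1 (74.2% to 98.5%), Prl2c2 (65.1% to 99%), Sprr1a (61.4% to 91.2%), Hspb1 (57.1% to 80.2%), Aldh1a3 (54.8% to 65.4%), Cdkn2a (53.3% to 81.2%) and Clu (51.6% to 70.7%). In WT untreated 1 cell held 444 of the 586 Ctla2a UMIs (75.8%), and in WT TNF 1 cell held 40.6%. The sums of Ctla2a in those libraries are levels of a few cells.

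**Figure D3:**
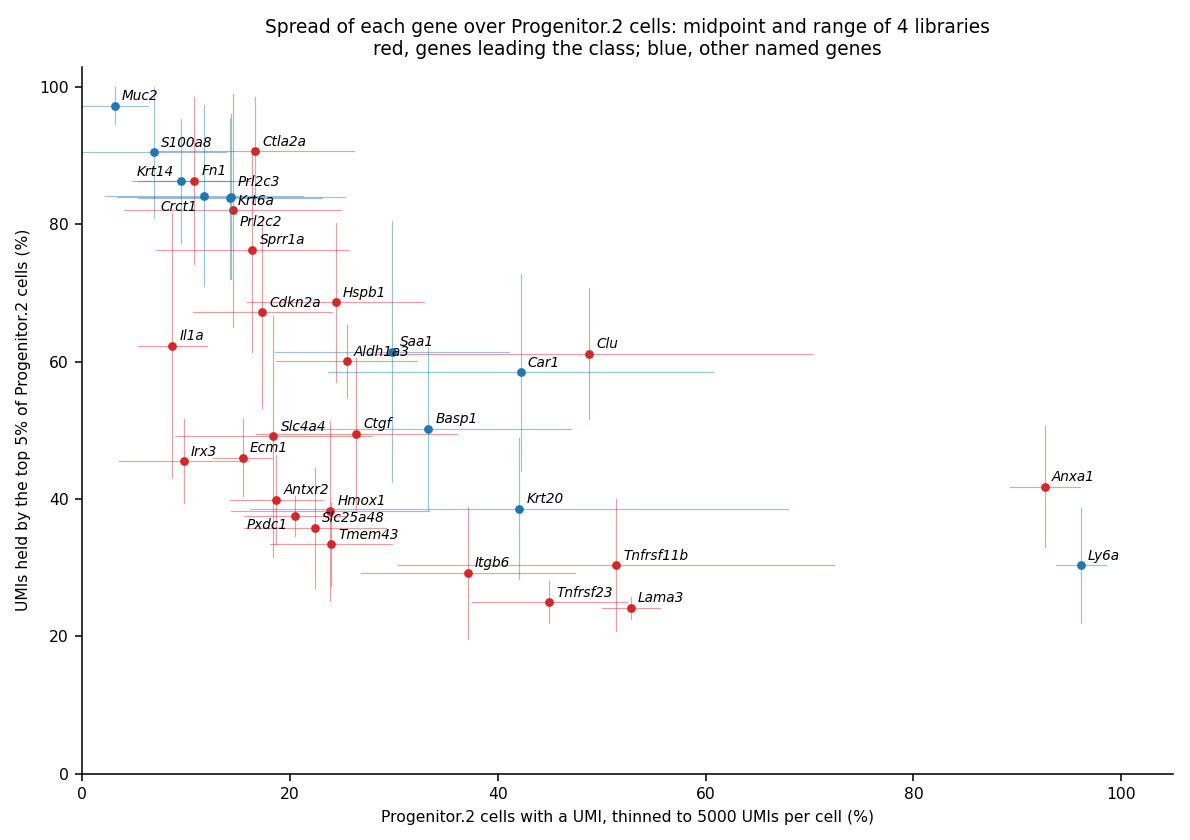
Spread of named genes over the Progenitor.2 cells: the x axis is the share of cells with a UMI after thinning to 5000 UMIs (percent) and the y axis the share of a gene's UMIs held by its top 5% of cells (percent). Points are midpoints and lines the range of the 4 libraries, red for leading genes and blue for other named genes. Ly6a, Anxa1 and Lama3 lie toward the lower right, and Ctla2a, Fn1 and Prl2c2 toward the upper left.

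The cells high in 1 gene were often high in certain others. For each gene the top 5% of cells by CPM within each library were taken, 65 cells for most genes, from a set of genes chosen after their values were seen. Cdkn2a shared 29 of its 65 high cells with Fn1 and 25 with Ctla2a. Clu shared 24 with Ctla2a and 24 with Fn1, and Ctla2a shared 22 with Fn1 and 21 with Hspb1. Aldh1a3 shared 23 with Anxa1, Krt20 shared 21 with Saa1, and Car1 shared 17 with Saa1. These 17 cells were 0, 1, 1 and 15 over the 4 libraries, so most lay in Tnfr2-/- TNF. The high cells of Car1 and of Krt20 shared 0 cells with those of Ctla2a, Fn1, Cdkn2a, Hspb1, Krt14 and Krt6a. The high cells of Car1 and of Krt20 were therefore different cells from those of these 6 genes. Sets drawn independently would share about 5% of their cells. With other leading genes Krt20 did share high cells, 5 with Ctgf and 4 with Aldh1a3. The class is not uniform in these genes, and the counts are descriptions.

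Fn1, fibronectin, is also abundant in fibroblasts. It was at 40.5, 221.1, 268.8 and 201.8 CPM in the class. The other mesenchymal markers summed to 25, 17.3, 11.9 and 13.8 CPM against 16469 to 26978 CPM in mesenchymal cells, Fn1 was the 1 of 20 markers at 20 CPM or more, and Mgp, Thy1 and Acta2 were at 0 in all 4 libraries. Cells with 5 or more UMIs of the mesenchymal list numbered 2, 32, 39 and 118, of which 2, 28, 38 and 110 fell below 5 once Fn1 was left out. Without such cells in any epithelial class, Cdkn2a was no longer above the highest other class in every library (smallest log2 difference -0.79), and Ctla2a (0.47), Clu (0.11) and Anxa1 (0.92) dropped under 2-fold.

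**Figure D4:**
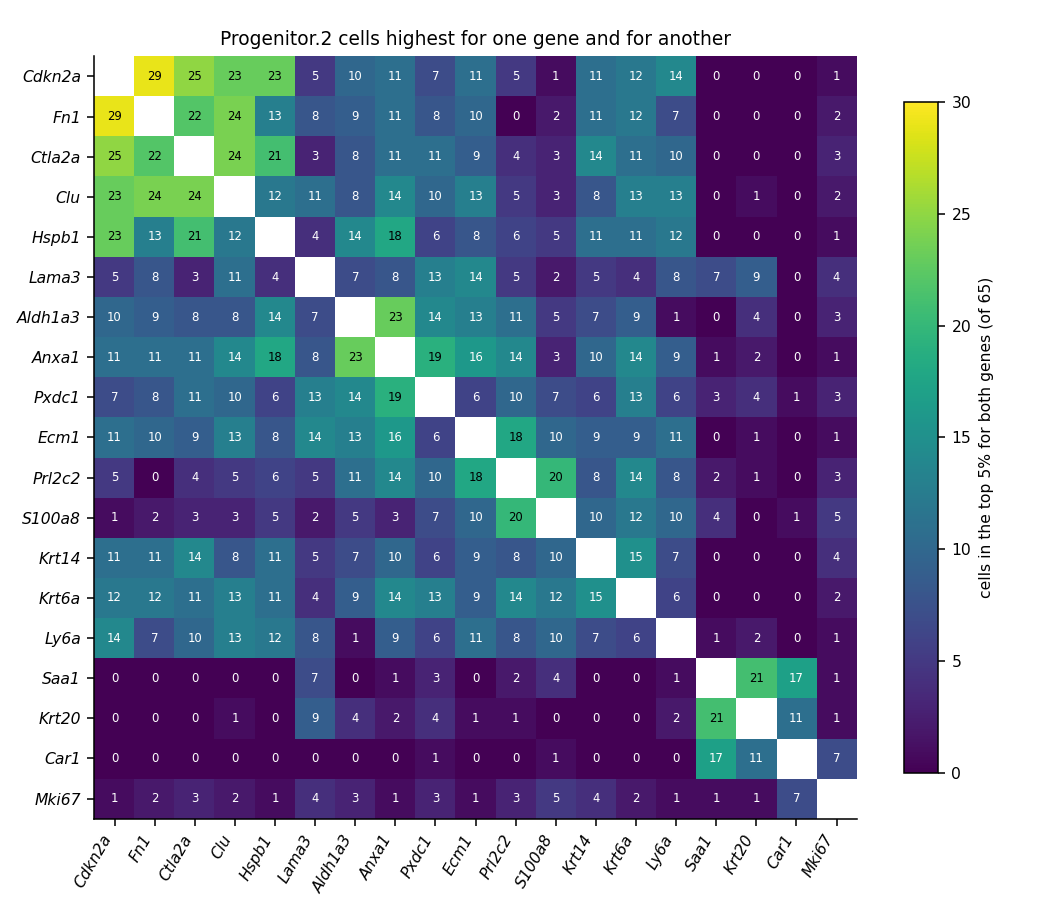
Number of cells shared between the high cells (top 5% within each library, 65 in all for most genes) of each pair of genes in Progenitor.2, with genes on both axes and the count as colour and number. Cdkn2a and Fn1 share 29, and Car1 and Krt20 share 0 with Ctla2a, Fn1, Cdkn2a and Hspb1.

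Across cells thinned to the same depth, the absorptive list ran against the ribosome biogenesis list in every library (Spearman rho -0.54, -0.69, -0.41 and -0.53 over 56, 270, 225 and 710 cells). Its relation to the fetal list was -0.52, -0.16, -0.24 and 0.08, and to the laminin list 0.34, 0.16, -0.00 and 0.29. All points of a library share that library and its free RNA, so these are descriptions.

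Between genotypes, genes lower in Tnfr2-/- Progenitor.2 cells included 19 of 44 tested absorptive genes, and genes higher in them included 5 of 24 genes of stratified and wound keratinocytes and 4 of 14 crypt stem and Wnt genes. At least 2-fold in both treatments, 60 of 5456 genes were higher in Tnfr2-/- (1.1%) and 99 lower (1.81%). The medians of all genes were 0.06 untreated and -0.04 with TNF. Among the same genes either pair alone passed more, 222 higher and 157 lower untreated and 135 and 230 with TNF. Donor mouse, sex-linked signal and culture differ along with the genotype and cannot be told apart from it. By the stock names in the study, the strain background of the Tnfr2-/- line differs from that of WT as well. Genes of chromosome 19 as a whole were shifted upward, with medians of 0.51 untreated and 0.48 with TNF over 230 genes, as were those of chromosome 2, at 0.27 and 0.19 over 417 genes, while the medians of the other chromosomes lay from -0.06 to 0.11 and from -0.14 to 0.04. Of the 60 higher genes 6 lay on chromosome 19 and 7 on chromosome 2. The part of these shifts in the counts was not tested. Across expression minimums the counts ran from 28 and 61 (50 CPM) to 240 and 252 (none).

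Among the lower genes, Krt20 was at 298.4 and 335.5 CPM in WT and 50.6 and 53.5 CPM in Tnfr2-/- (-2.54 and -2.63). Car1 differed by -2.06 and -1.42. Aqp8, the water channel of surface colonocytes, was at 137.6, 62.8, 1.21 and 4.27 CPM, and Slc26a3, the chloride and bicarbonate exchanger, at 90.5, 21.4, 1.31 and 1.1 CPM. Lypd8, which keeps flagellated bacteria off the epithelium, was at 3703, 4833, 883.4 and 958.6 CPM, and Muc3, a membrane mucin, at 618.8, 437, 86.5 and 62.9 CPM. No Tnfr2-/- value of these 6 genes reached a WT value. Of 44 tested genes of the absorptive list, 19 were lower and 0 higher (medians -1.12 and -0.98), and of 23 colonocyte transport and maturation genes, 8 were lower and 0 higher. The median cell had 2.52%, 1.52%, 0.51% and 0.53% of its UMIs in the absorptive list, so the difference was also present in the typical cell. The same list took 4.8% and 4.67% in WT absorptive cells and 3.54% in the absorptive cells of Tnfr2-/- untreated.

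By rank the lowest genes were Xist, Tstd1, Chp2, Tpm2, Aqp8, Slc26a3, Mgat4c and Car9. Xist, at 521.7, 641.9, 0.303 and 0.0889 CPM, follows the sex-linked difference given above. Tstd1 was at 37.5, 134.4, 1.61 and 1.78 CPM, and Tpm2, a tropomyosin, at 43.5, 35.5, 1.01 and 1.63 CPM. Car9, a carbonic anhydrase induced by hypoxia, was at 59, 171.5, 7.47 and 16.8 CPM, although 3 other hypoxia genes of 38 tested were higher (Pfkfb3, Hilpda and Ero1l). Areg, an EGF receptor ligand and YAP target, was at 1987, 2417, 775.1 and 615.1 CPM.

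Among the higher genes were both chains of calprotectin, an antimicrobial protein of neutrophils and inflamed epithelium. S100a8 was at 1.19, 1.66, 311.9 and 255.2 CPM and had a UMI in 1, 18, 56 and 149 cells. Mesenchymal cells of the same libraries held S100a8 at 16.1, 826.8, 246.2 and 610.9 CPM, more than Progenitor.2 in every library but Tnfr2-/- untreated. The part of free RNA in the S100a8 levels was not tested. S100a9 had 0, 0, 1149 and 5027 UMIs, which against a floor of 3 counts per WT library is at least 64.9-fold higher untreated and at least 629.9-fold higher with TNF. These UMIs came from 12 and 48 cells, and 1 cell held 70.2% of them in Tnfr2-/- untreated. Sprr2f, a cornified envelope gene with close relatives, had 0 UMIs in both WT libraries and was at least 22.6-fold and 549.5-fold higher, from 6 and 34 cells. The immune marker list summed to 8.93, 3.39, 22.3 and 9.96 CPM with 0 genes at 20 CPM.

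Saa3, an acute-phase protein, was at 22, 23.7, 213.9 and 485.9 CPM, and Lcn2, which withholds iron from bacteria, at 3.57, 8.12, 74.8 and 80.4 CPM. Pgf, placental growth factor, was at 1.19, 30.1, 72.3 and 224.3 CPM, higher with TNF in each genotype as well. Of 34 tested TNF and NF-kB targets, 3 were higher (Lcn2, Saa3 and Tnfaip2) and 1 lower (Cxcl1, at 33.4, 68.2, 6.76 and 8.15 CPM). Of 24 genes of stratified and wound keratinocytes, 5 were higher (S100a8, S100a9, Sprr2f, Crct1 and Krt16) and 0 lower. The remaining genes named by rank were Gm42047, at 1.79, 3.07, 25 and 26.1 CPM, and Lgr5.

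Crypt genes were higher in the Tnfr2-/- cells, from low levels. Of 14 tested genes of the crypt stem and Wnt list, 4 were higher and 0 lower (medians 0.63 and 0.6). Lgr5 had 0 UMIs in WT untreated, against whose floor of 3 counts Tnfr2-/- untreated was at least 12.5-fold higher, and with TNF it was higher by 2.57 on the log2 scale. It was found after thinning in 0%, 2.22%, 7.11% and 15.2% of cells (0%, 8.42%, 24.9% and 38.8% unthinned), against at most 1.16% of mesenchymal cells and 21.2% to 37.2% of Progenitor.1 cells. Axin2, a feedback target of Wnt, was at 9.53, 18, 56.9 and 67.7 CPM, Ephb3, which positions crypt cells, at 11.9, 11.7, 31.3 and 39.4 CPM, and Kcnq1, a potassium channel of crypt cells, at 14.9, 29.7, 65.9 and 60.9 CPM. Each of these genes was higher in both Tnfr2-/- libraries than in either WT library. The laminin list gave 0 genes either way of 16 tested, AP-1 and early response genes 0, ribosome biogenesis genes 0 of 22, and fetal intestine genes 3 higher and 5 lower of 153. Ly6a itself differed by -0.21 and -0.34.

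**Figure D5:**
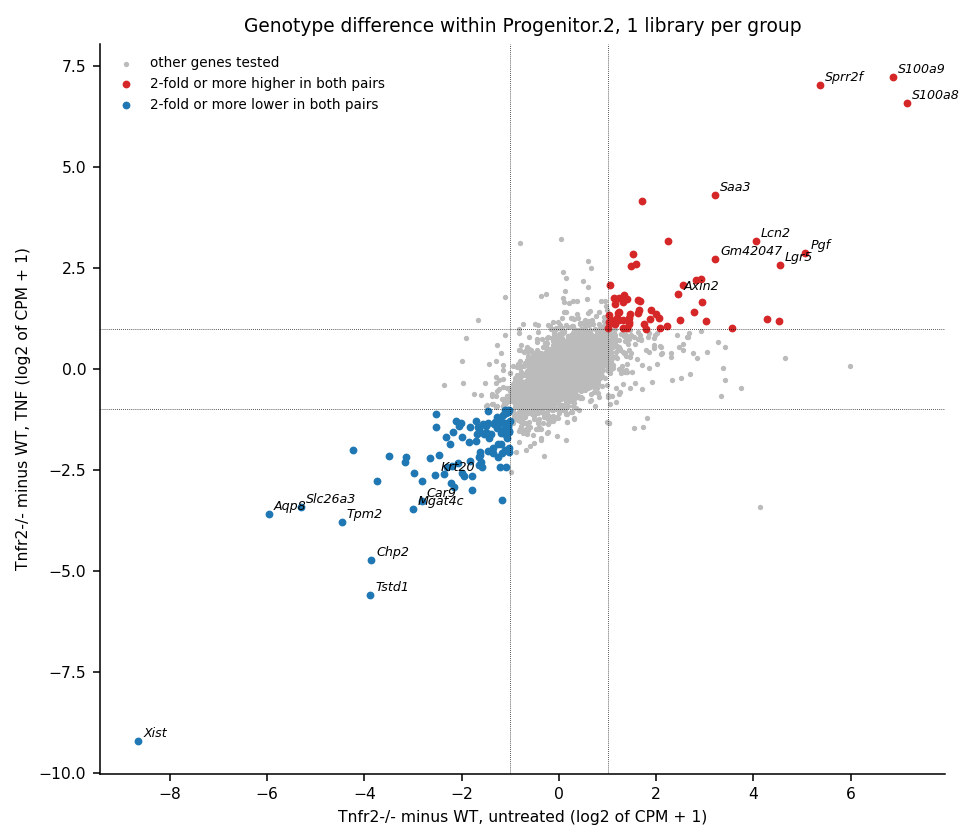
Difference between genotypes within Progenitor.2 for 5456 genes, Tnfr2-/- minus WT as log2 of (CPM + 1), untreated on the x axis and with TNF on the y axis; dotted lines mark 2-fold. The 60 red genes are higher and the 99 blue genes lower in both pairs, and the places of S100a9 and Sprr2f, at 0 UMIs in WT, depend on the added 1 CPM.

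TNF was followed by fewer differences shared between genotypes. Of 5274 genes, 22 were higher with TNF in both genotypes (0.417%) and 27 lower (0.512%). Across expression minimums the counts ran from 13 and 16 (50 CPM) to 82 and 60 (none). Among the same genes the WT pair alone passed 195 higher and 125 lower genes and the Tnfr2-/- pair 28 and 50. The WT untreated cells were few, shallow and rich in mitochondrial UMIs, and the part of this in the WT pair was not tested.

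Goblet and secretory markers made up 6 of the 8 genes highest by rank. Spink4 was at 16.1, 431.7, 18.5 and 719.1 CPM, Tff3, a trefoil peptide secreted with mucin, at 33.4, 511.2, 74.4 and 1732 CPM, and Muc2, the gel-forming mucin, at 0.596, 52.3, 0.202 and 23.7 CPM. Ang4, Fcgbp and Sval1 were the other such markers, and Ifitm2 and Pgf were the other genes by rank. Of 8 tested goblet and secretory markers, 7 were higher with TNF, with a median of 4.28 in each genotype. The study's goblet list gave 4 higher and 0 lower of 8, with medians of 2.48 and 2.28, and its deep secretory list 9 higher and 0 lower of 22, with medians of 1.07 and 0.48. The signal lay in few cells. Cells with at least 1% of their UMIs in this list numbered 1, 10, 1 and 54, which is 1.61%, 3.66%, 0.429% and 7.54% of the class, and in the TNF libraries they held 75.4% and 92.9% of the list's UMIs. Each untreated library had 1 such cell, of 3782 UMIs in WT untreated, so levels there are of single cells. Their Ly6a was lower in every library, at 264.4, 2672, 1304 and 1170 CPM against 4631, 3363, 4012 and 2755 CPM in the other cells. Without them, in a setting added after the data were seen, the higher genes fell from 22 to 16, Ang4 turned to -0.28 in its smaller pair, and Spink4 (0.90) and Muc2 (0.36) dropped under 2-fold. In the remaining cells the list took 0.00961%, 0.0433%, 0.0135% and 0.0247% of UMIs, against 6.4% to 7% in the secretory class.

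Other TNF-associated genes were not of goblet cells. Nos2, the inducible nitric oxide synthase and an NF-kB target, was at 10.7, 291.1, 120.1 and 295.8 CPM, higher by 4.64 and 1.29, and was the 1 higher gene of 32 tested TNF and NF-kB targets. Cxcl5, a neutrophil chemokine, was the 1 lower, at 30.4, 13.1, 71.4 and 13.8 CPM. Hypoxia and glycolysis genes gave 5 higher and 0 lower of 37, with medians of 1.44 and 0.57. Egln3, an oxygen sensor that hypoxia induces, was at 51.8, 467, 310.9 and 641.4 CPM, and Ero1l, an oxidase of protein folding, at 125.1, 511.1, 460.9 and 1199 CPM. The list's share of UMIs was 1.05%, 1.98%, 1.78% and 2.59%, lowest in WT untreated and highest in Tnfr2-/- TNF.

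At the lower end, both proliferin genes were lower with TNF, Prl2c3 by -5.27 and -2.09 and Prl2c2 by -4.31 and -2.22. Serpinb9b (-2.41 and -2.00), Crip2, Ly6g6c, Clic3 and Hpgd, which degrades prostaglandins, were lower as well. Psca, a relative of Ly6a, was at 243.6, 17.7, 65.2 and 16.2 CPM. Of 152 tested fetal intestine genes, 8 were lower and 0 higher, and of 20 stratified and wound keratinocyte genes, 3 were lower (Sbsn, Krt14 and Krt16). Interferon targets gave 1 higher (Ifitm2) and 3 lower (Isg15, Ifi35 and Ifit1bl1) of 24. Laminin genes gave 0 of 15 and crypt stem genes 0 of 11, neither list having a member past 2-fold in both genotypes.

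The TNF effects of the genotypes lay farthest apart for genes held by few cells, with 1 exception. Guca2b, which encodes uroguanylin, a peptide of mature colonocytes, was at 1.79, 404.9, 9.08 and 15.3 CPM, and 199 of the 273 WT TNF cells had a UMI. Prl7b1 owed 872 of its 906 UMIs in Tnfr2-/- untreated to 1 cell, Bglap3 111 of 115 UMIs in WT untreated to 1 cell, and Spink12 559 of 1085 UMIs in Tnfr2-/- TNF to 1 cell. Car4, a membrane carbonic anhydrase, had its UMIs in 11 WT untreated cells, at 66.7 CPM against at most 2.9 CPM in the others. Defb1, at the same end as Guca2b, had 97% of its WT TNF UMIs in 1 cell.

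Tnfrsf1b, the disrupted gene (chromosome 4, 145213463 to 145246870), had 2, 187, 51 and 258 UMIs in Progenitor.2, or 1.19, 14.7, 5.15 and 7.65 CPM. The libraries are named by their labels throughout, since 3' tags count the end of the transcript and the sources used here do not say which part the allele removes. UMIs in the Tnfr2-/- cells therefore check no label. Progenitor.1 cells held 4.99, 12, 0.98 and 2.15 CPM, so the receptor's transcript was low in both classes.

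Markers of other cell types were otherwise near the floor. The study's enteroendocrine and tuft lists had 0 members past the expression minimum in the comparison with Progenitor.1. In Tnfr2-/- TNF the granin gene Chgb had 62.2% of its UMIs in 1 Progenitor.2 cell and the peptide hormone gene Pyy 84.5%. Of 15 epithelial identity genes, 14 were at 20 CPM or more in each library. Krt8 was at 8636, 7141, 6006 and 4706 CPM and Epcam at 4384, 4706, 2393 and 2601 CPM, so the class was epithelial in every library. Over all 33 lists, 19 took a larger share of UMIs than in Progenitor.1 in all 4 libraries and 6 a smaller one.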

How the data were processed

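Single-cell RNA was counted in 4 libraries of mouse colonic organoids, 1 per genotype and treatment. The deposited counts are whole UMIs per gene and cell for 30360 genes and 6155 cells, and the authors removed cells under 100 UMIs and doublets of epithelial and mesenchymal cells before deposit, so no doublet caller was run. The submitters' processing notes name Cell Ranger 5.0.0 and build mm10, and the authors named the classes from Leiden clusters made in monocle3. Libraries were matched to groups through the genotype and treatment of the cell table.

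UMIs were summed per class and library and scaled to the class total (CPM). Classes needed 10 cells and genes 20 CPM on either side. Differences used a pseudocount of 1 CPM and a 2-fold rule. Cells were thinned to 5000 UMIs for shares of cells. Sums at 0 were given a floor of 3 counts per library, and intervals are at 95%. Genes were named by a rule: 13 fixed genes, the 12 furthest above the other classes, the 10 at each end against Progenitor.1, the 8 at each end against absorptive cells, for genotype and for TNF, the 3 at each end of the difference in TNF effect, and per list up to 4 members of high level and those past 2-fold. Others were chosen after their values were seen, and 2 genes are not reported here. The class, the 33 lists and the rule were chosen with earlier results of these data known. Of the gene identifiers, 30240 matched GENCODE M21 (GRCm38), which gave positions, and 120 did not. The work used Python 3.11.15 with numpy 2.4.6, scipy 1.17.1, pandas 2.3.3 and matplotlib 3.10.9, and edgeR 4.0.16 in R 4.3.3 for TMM factors in an alternative alone. The counting was tested on simulated data. Alternatives were other pseudocounts, minimums, scalings and cell filters and each library left out. The removal of goblet-rich cells and of mitochondrial genes from the totals were added after the data were seen.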

Additional observations from a re-analysis of the deposited data

Results flagged for a closer look

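In 6 genes the WT libraries moved one way with TNF and the Tnfr2-/- libraries the other, by at least 2-fold each way, within Progenitor.2. With 1 library per group the difference was not tested for any of them. Values in parentheses are the Tnfr2-/- effect minus the WT effect on the log2 scale.

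Defb1, a defensin (-7.54), was at 1.19, 26.4, 37.2 and 1.57 CPM in WT untreated, WT TNF, Tnfr2-/- untreated and Tnfr2-/- TNF, and 325 of its 335 UMIs in WT TNF came from 1 cell. Ccl2, a chemokine that draws monocytes (-5.91), was at 1.19, 22.9, 138.2 and 24.3 CPM from 2, 104, 23 and 106 cells. Mesenchymal cells of the same libraries held Ccl2 at 761.2, 9886, 1799 and 2555 CPM, and the part of free RNA in the low levels was not tested. Cst6, a cysteine protease inhibitor (-4.40), was at 8.34, 72.8, 235.2 and 87.2 CPM, and its highest cell held 31.8% of the WT TNF UMIs. Gm3776 (-3.17) was at 17.9, 42.6, 61.6 and 15 CPM. In WT TNF 1 cell held 178 of its 540 UMIs, and the other cells came to 28.7 CPM, which is under 2-fold above WT untreated. Ctla2a (-2.61) was at 349, 750.4, 2882 and 1013 CPM, and 75.8% of its WT untreated UMIs were in 1 cell. Thbs1, thrombospondin (-2.39), was at 35.7, 76.1, 74.8 and 29.4 CPM. Each of the 6 rose in WT and fell in Tnfr2-/-, so by construction its lowest value was in WT untreated or Tnfr2-/- TNF.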

How the results depend on the processing

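Counts below are higher and then lower genes. With a pseudocount of 10 CPM, 308 genes were lower than in Progenitor.1, 71 higher than in absorptive cells, 15 above every other class, 31 higher in Tnfr2-/- and 16 lower with TNF. With a minimum of 50 CPM, 227 were lower than in Progenitor.1, 57 higher than in absorptive cells, 13 above every other class, 28 and 61 differed by genotype, and 13 and 16 by TNF. With no minimum the counts were 639 and 927 against Progenitor.1, 419 and 130 against absorptive cells, 56 above every other class, 240 and 252 for genotype, and 82 and 60 for TNF. TMM scaling gave 39 higher with TNF. The mean of cell CPM gave 186 lower in Tnfr2-/-, and thinned cells gave 92 and 191 for genotype and put Tnni1 at 0.00 against absorptive cells.

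Without epithelial cells with 5 or more mesenchymal marker UMIs, 73 genes were higher than in absorptive cells and 14 were above every other class. Cdkn2a then reached -0.79 against the highest other class. Without goblet-rich cells Ang4 reached -0.28 with TNF. Classes of at least 20 cells left 73 genes above every other class, by fewer classes compared. A pair alone, over all genes past the minimum in that pair, gave 255 and 216 (untreated) or 171 and 282 (TNF) for genotype, and 246 and 183 (WT) or 48 and 65 (Tnfr2-/-) for TNF. Leaving out 1 library gave 126 to 310 higher and 76 to 207 lower than in absorptive cells, and 25 to 90 above every other class, the upper ends without WT TNF. A rule over fewer libraries or pairs passes more genes by its construction, and for the other settings the cause was not tested. Of 1228 values of named genes under 21 settings, 1213 kept their direction and their side of 2-fold, 12 dropped under 2-fold and 3 turned or reached 0. The expression minimums leave these values unchanged by construction. Settings with fewer libraries, pairs or classes can only hold or widen them, so the values there could not weaken.

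No paired analysis was possible because each group had 1 library and the labels carry no replicate numbers. The 62 WT untreated cells, with 1679134 UMIs, set the least depth, where 1 UMI is 0.596 CPM.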
